A study of Homo sapiens with 2 samples.

Results

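Mitochondrial ribosomal protein genes encode the proteins of the mitoribosome, and they were followed here in C4-2B cells treated with the ACK1 inhibitor (R)-9b. The genes were taken as every protein-coding gene whose symbol starts with MRPL or MRPS followed by a number, MRPL for the large and MRPS for the small subunit. This gave 78 of the 60671 genes measured, 49 MRPL and 29 MRPS genes. C4-2B is a human prostate cancer cell line. One culture received vehicle and the other 1 µM (R)-9b overnight, and 1 RNA sequencing library of poly-A selected RNA was made from each, holding 65207444 counts for vehicle and 57653965 for (R)-9b. Without replicates, the spread between cultures is unknown, no test was possible, and every difference below compares 2 libraries rather than 2 conditions. The intervals are exact 95% intervals for counting error only, and a rise or fall means a ratio above or below 1 between these 2 libraries.

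The mitoribosome sits in the mitochondrial matrix and translates the few messages of the mitochondrial genome, which encode core subunits of the respiratory chain and the ATP synthase. Its rRNAs are transcribed from mitochondrial DNA, whereas all its proteins are encoded in the nucleus, made on cytosolic ribosomes and imported. Some of these proteins descend from those of the bacterial ribosome and others were added in the lineage of mitochondria. The large subunit forms peptide bonds, and the small subunit binds the message and reads its codons.

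The labels give the cell type as breast cancer, whereas the paper treats the line as prostate cancer. All 8 prostate epithelial markers examined were detected in both libraries, among them KLK3, the gene of prostate-specific antigen, with 146597 counts in vehicle and 297728 in (R)-9b. Of the 8 breast markers, SCGB2A2, which encodes mammaglobin, and ANKRD30A had 0 counts in both libraries and ESR1, the oestrogen receptor gene, had 2 in each. GATA3, TFF1, SCGB1D2 and PGR had between 2 and 73 counts in a library, and ERBB2, a receptor kinase gene that is not specific to breast, had 10027 in vehicle and 11623 in (R)-9b. The line was described as prostate cancer. Among immune markers, PTPRC was at 0 in both libraries, CD14 and CD3E had up to 2 counts, CD68 had 4 and 12, and CD4 had 117 in vehicle and 15 in (R)-9b. Of the 6 stromal markers, COL1A1 had 1114 and 2004 counts, COL3A1 had 32 and 55, and the other 4 had up to 14. The part of these markers in the values below was not tested. Genes of the mitochondrial chromosome took 1.49% of the vehicle counts and 9.54% of the (R)-9b counts, and scaling the libraries without these genes moved the log2 ratios below by 0.00050.

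The promoters of these genes were examined first, since the genes are scattered over 21 chromosomes, with no chromosome holding more than 8 of them. RefSeq promoters, running from 250 bases before to 50 bases after the start of a gene in build GRCh38.p14, were found for 69 of the 78 genes. They were searched on both strands for the core letters bound by ETS factors such as GABPA (CCGGAAG), by NRF1 (GCGCANGCG) and by YY1 (AAGATGGCG), transcription factors known for their part in nuclear genes of mitochondria, and for the TATA box letters TATAAA. The ETS letters occurred in 29 of the 69 promoters (42%), against 10.7% of all 27305 RefSeq promoters and 21.5% of the 7873 promoters of protein-coding genes with at least 1000 counts in these libraries. The YY1 letters occurred in 13 promoters (18.8%), against 1.85% and 4.62%. The NRF1 letters also occurred in 13 (18.8%), against 8.05% and 16.5%. TATAAA was found in 2 promoters (2.90%), against 12.0% and 4.71%. At least 1 of the ETS, NRF1 and YY1 letters was present in 45 promoters (65.2%), against 18.3% and 36.9%. Part of the ETS and YY1 letters can coincide, and matches to both overlapped in 0 of the 69 promoters.

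For each of the 3 motifs, windows of 30 bases are shown from 4 genes that held it, the 2 that rose most and the 2 that fell most by their intervals, so that genes moving in opposite directions can be read side by side. Capitals mark the match, and each window is written on the strand of its gene. Some matches lie on the opposite strand and read as the reverse complement, such as CTTCCGG or CGCCATCTT.
ETS, higher in (R)-9b, MRPL38, chr17:75905074-75905103, minus strand: tccaacgggcaCTTCCGGagccgggcgtct
ETS, higher in (R)-9b, MRPS12, chr19:38930928-38930957, plus strand: acggatagcgcCCGGAAGaggctagaagct
ETS, lower in (R)-9b, MRPL54, chr19:3762650-3762679, plus strand: gccactgacgtCTTCCGGaaacgtgcactt
ETS, lower in (R)-9b, MRPL48, chr11:73787800-73787829, plus strand: aatttcagaagCTTCCGGaactaaaatgat
YY1, higher in (R)-9b, MRPL38, chr17:75904859-75904888, minus strand: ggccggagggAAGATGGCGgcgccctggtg
YY1, higher in (R)-9b, MRPL36, chr5:1799854-1799883, minus strand: ccccccccgcCGCCATCTTccttcctggca
YY1, lower in (R)-9b, MRPS18B, chr6:30617853-30617882, plus strand: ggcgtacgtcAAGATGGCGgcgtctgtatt
YY1, lower in (R)-9b, MRPL22, chr5:154941093-154941122, plus strand: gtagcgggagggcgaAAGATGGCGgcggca
NRF1, higher in (R)-9b, MRPL36, chr5:1799927-1799956, minus strand: cgcactccagCGCCTGCGCactcgctgctg
NRF1, higher in (R)-9b, MRPL30, chr2:99181059-99181088, plus strand: gatacccaggCGCCTGCGCtctctttctag
NRF1, lower in (R)-9b, MRPL45, chr17:38296969-38296998, plus strand: ttgtctccctGCGCACGCGcggccgtactc
NRF1, lower in (R)-9b, MRPL22, chr5:154941039-154941068, plus strand: ccagagtattGCGCATGCGtgctgtccaga
The genes for each motif were picked in both directions, so these windows do not show how a motif relates to direction. A match is a run of letters and not a measured binding site.

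Taken as a whole, the genes kept a nearly equal share of the RNA in both libraries. Their counts summed to 333518 in vehicle and 288417 in (R)-9b, which is 0.51% and 0.50% of each library. After scaling by the trimmed mean of M values (TMM), the vehicle sum was 5009 CPM (counts per 1000000) and the (R)-9b sum 5108 CPM, a log2 ratio of (R)-9b to vehicle of 0.03 (0.02 to 0.04). Of the 78 genes, 77 had at least 10 counts over both libraries. MRPL53 had 0 counts in each library.

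Single genes differed in both directions. The log2 ratio ranged from -0.64 to 1.08 with a median of 0.00072. The whole interval lay above 0 for 29 of the 77 genes (37.7%), against 35.4% of the 14791 protein-coding genes with at least 10 counts and 38.4% of the 9590 with at least 1000 counts. It lay below 0 for 24 genes (31.2%), against 37.0% and 44.3%, and included 0 for the remaining 24. Scaling by total counts moved every log2 ratio by -0.06 and gave 24 intervals above and 33 below 0, and upper-quartile scaling gave 34 and 18, so which direction was the more frequent depended on the scaling.

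The differences were smaller than those of most protein-coding genes. Ratios over 1.2 were found for 14 of the 77 genes (18.2%), against 30.2% of protein-coding genes with at least 10 counts and 23.5% of those with at least 1000. Ratios under 1/1.2 were found for 10 genes (13.0%), against 29.8% and 27.4%. The middle 50% of the genes spanned 0.33 on the log2 scale, and that of protein-coding genes 0.70 at a minimum of 10 counts and 0.54 at a minimum of 1000. A ratio beyond 1.5-fold in either direction was seen for 3 mitoribosome genes, MRPL38, MRPS25 and MRPS35, which is 3.90% against 31.1% and 18.6%. Among the 71 genes with at least 1000 counts themselves, the middle 50% spanned 0.31, and 12 were over 1.2-fold higher and 9 over 1.2-fold lower.

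**Figure D1:**
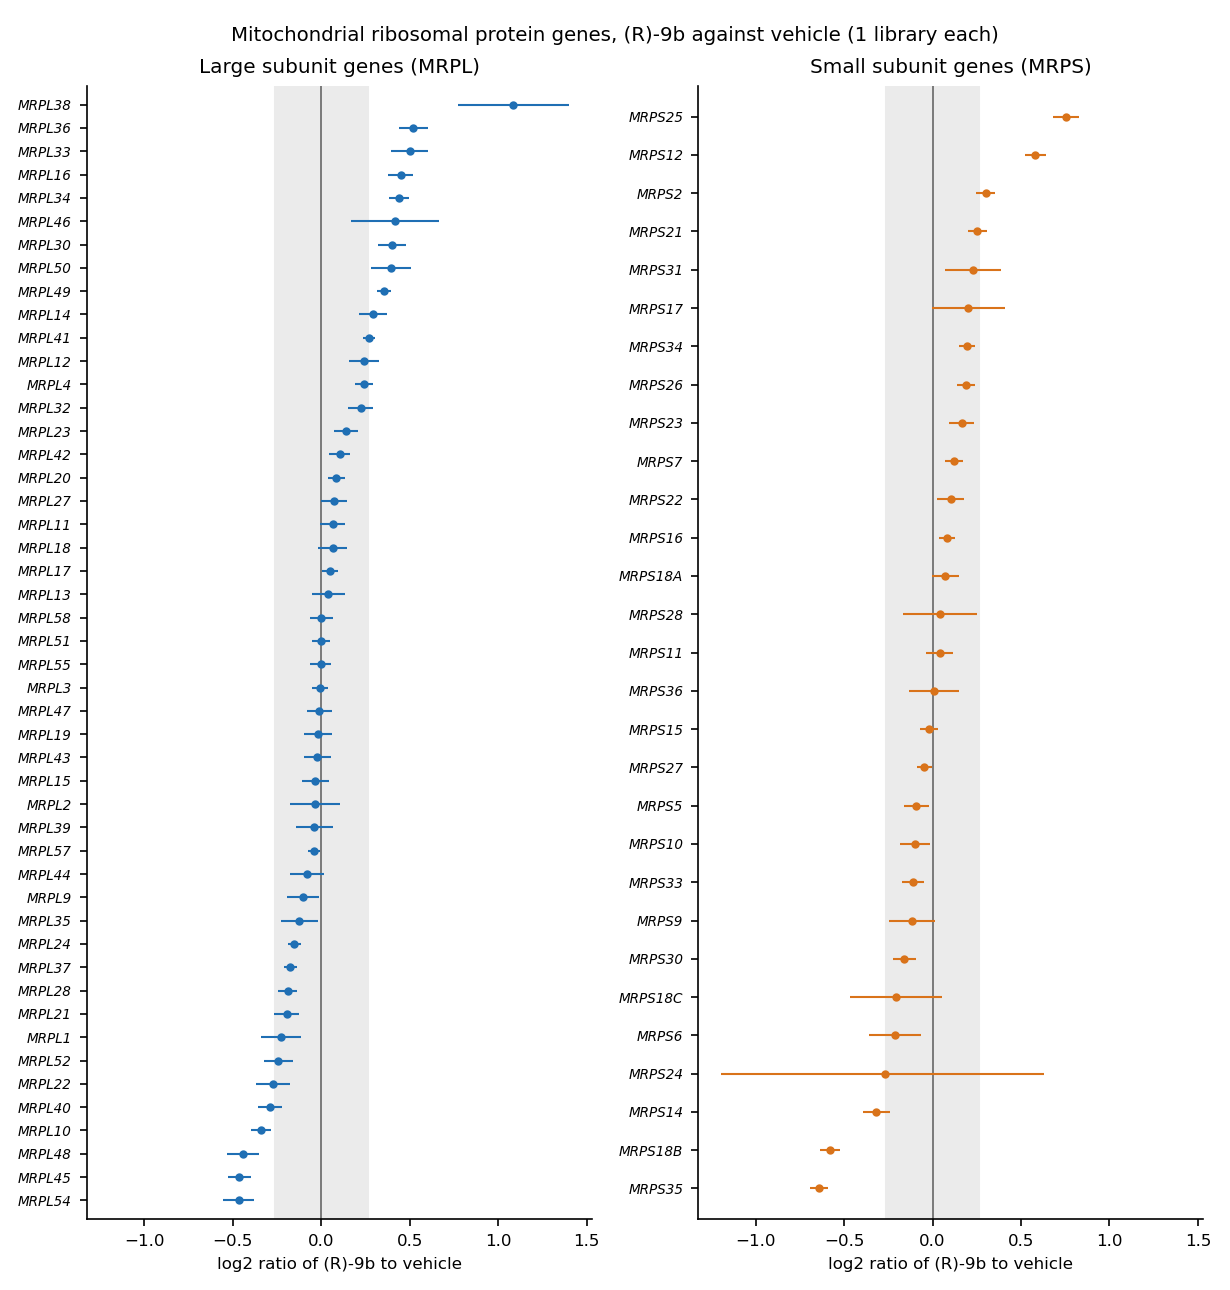
Log2 ratio of (R)-9b to vehicle (horizontal axis) for the 48 large subunit genes (left) and 29 small subunit genes (right) with at least 10 counts, sorted by ratio. Points are single-library ratios after TMM scaling, lines are exact 95% counting intervals, and the grey band is 1.2-fold either way. Most genes lie inside the band, MRPL38 and MRPS25 lie farthest to the right and MRPS35 farthest to the left.

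The 2 subunits differed little from each other. The median log2 ratio was -0.0033 over 48 large subunit genes and 0.040 over 29 small subunit genes, a difference of -0.04. Among the large subunit genes 18 intervals lay above and 15 below 0, and 11 genes were over 1.2-fold higher and 6 lower. Among the small subunit genes 11 intervals lay above and 9 below 0, and 3 genes were over 1.2-fold higher and 4 lower. The shares above and below 0 were 37.5% and 31.25% for the large and 37.9% and 31.0% for the small subunit. Of protein-coding genes with at least 10 counts they were 35.4% and 37.0%. Large subunit genes had 217666 counts in vehicle and 188195 in (R)-9b, and small subunit genes 115852 and 100222, so the large to small ratio was 1.88 in both libraries. The log2 of the (R)-9b ratio over the vehicle ratio was -0.00080 with an exact conditional interval of -0.02 to 0.01. The interval covers counting error only and leaves out the spread between cultures.

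Symbols do not always name the place of a protein. MRPS18A and MRPS30 carry small subunit symbols but sit in the large subunit, and MRPS36 is now known as a part of the oxoglutarate dehydrogenase complex. MRPS18A had 2854 counts in vehicle and 2545 in (R)-9b, a log2 ratio of 0.07 (-0.01 to 0.15). MRPS30 had 4567 and 3466 counts, a log2 ratio of -0.16 (-0.22 to -0.10). MRPS36 had 906 and 772 counts, a log2 ratio of 0.0069 (-0.13 to 0.15). Grouped by structure, 50 large subunit genes had a median of -0.0033 and 26 small subunit genes one of 0.041, nearly the values given by the symbols.

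Origin gave small differences between the medians as well. The 31 large subunit genes with a bacterial counterpart had a median log2 ratio of 0.05, with 12 intervals above and 8 below 0. The 19 without one had a median of -0.04, with 6 above and 8 below. In the small subunit, 17 genes with a counterpart had a median of -0.02, with 5 above and 5 below, and 9 genes without one had a median of 0.16, with 6 above and 3 below. The 3 genes beyond 1.5-fold were all of the kind without a bacterial counterpart, 3 of 28 tested against 0 of 48. For 1 of them, MRPL38, the transcript estimates described below gave a log2 ratio of 0.24 in place of 1.08.

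The largest fall was that of MRPS35, a small subunit protein specific to mitochondria. MRPS35 (ENSG00000061794, chr12:27710773-27756295, plus strand) had 9011 counts in vehicle and 4901 in (R)-9b, or 135 and 86.8 CPM. Its log2 ratio was -0.64 (-0.69 to -0.59). MRPS18B, 1 of 3 human relatives of bacterial S18, followed (ENSG00000204568, chr6:30617709-30626395, plus strand). It had 6789 counts in vehicle and 3857 in (R)-9b, a log2 ratio of -0.58 (-0.64 to -0.52). The other S18 relatives were not as low, with MRPS18A as given above and MRPS18C at 290 and 213 counts, a log2 ratio of -0.21 whose interval included 0 (-0.47 to 0.05).

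Large subunit proteins made up most of the other falls listed, but they were also most of the genes tested, 48 beside 29 of the small subunit. The shares over 1.2-fold lower were similar, at 12.5% of the large and 13.8% of the small subunit genes. MRPL54 had 2879 counts in vehicle and 1765 in (R)-9b, a log2 ratio of -0.47 (-0.55 to -0.38). MRPL45, which lies at the exit of the peptide tunnel on the side of the inner membrane, had 5011 and 3080 counts, a log2 ratio of -0.46 (-0.53 to -0.40). MRPL48 had 2570 and 1605 counts, a log2 ratio of -0.44 (-0.53 to -0.35). By gene counts these 3 genes were thus lower by similar amounts, and their intervals overlapped. By the transcript estimates described below, MRPL54 had a log2 ratio of -0.47 and MRPL48 one of -0.07. MRPL45 had 0 estimated counts in (R)-9b and so no finite log2 ratio.
MRPL10, part of the stalk base that binds translation factors through MRPL12, had 6399 and 4283 counts, a log2 ratio of -0.34 (-0.40 to -0.29). MRPS14, a protein of the small subunit head with a bacterial counterpart, had 3496 and 2379 counts, a log2 ratio of -0.32 (-0.39 to -0.24). The list of the 10 largest falls was completed by MRPL40, MRPL22, a protein that lines the peptide tunnel, and MRPL52, at log2 ratios of -0.29, -0.27 and -0.24.

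MRPS25 and MRPL38 had the largest rises. MRPS25, a small subunit protein without a bacterial counterpart (ENSG00000131368, chr3:15042460-15065335, minus strand), had 2526 counts in vehicle and 3613 in (R)-9b, or 37.9 and 64.0 CPM. Its log2 ratio was 0.75 (0.68 to 0.83). Of its exon bases, 22.2% overlap exons of other genes, most of all NR2C2 on the opposite strand. The strand setting of the counting is not given in the sources used here. MRPL38 had the largest ratio of all but few gene counts, 133 in vehicle and 239 in (R)-9b, a log2 ratio of 1.08 (0.77 to 1.40). It is taken up again with the transcript estimates.

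The other rises were shared by proteins with bacterial counterparts and later additions. MRPS12, a protein of the decoding centre (ENSG00000128626, chr19:38930548-38933162, plus strand), had 4198 counts in vehicle and 5324 in (R)-9b, a log2 ratio of 0.58 (0.52 to 0.64). MRPL36 and MRPL33, small proteins of the large subunit that are kept from bacteria, had log2 ratios of 0.52 (2228 and 2711 counts) and 0.50 (1376 and 1650 counts). MRPL16 had 3007 and 3478 counts, a log2 ratio of 0.45 (0.38 to 0.52). All 4 have bacterial counterparts.
MRPL34 and MRPL30, again with bacterial counterparts, had log2 ratios of 0.44 and 0.40. MRPL50 and MRPL49, which have none, had log2 ratios of 0.39 (1164 and 1297 counts) and 0.36 (9526 and 10340 counts). Ratios of the 10 largest rises other than MRPL38 thus lay between 0.36 and 0.75, and those of the 10 largest falls between -0.64 and -0.24.

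Levels between genes were compared as CPM per kilobase of exon. The 5 most abundant genes per kilobase were MRPL41, MRPS34, MRPL24, MRPL57 and MRPS26. MRPL41 (ENSG00000182154, chr9:137551199-137552555, plus strand) stood at 167 CPM per kilobase in vehicle and 201 in (R)-9b, from 13996 and 14287 counts. MRPS34 stood at 121 and 139, MRPL24 at 122 and 109, MRPL57 at 102 and 99.0, and MRPS26 at 84.5 and 96.2 CPM per kilobase. MRPL41, MRPS34 and MRPS26 were higher in the (R)-9b library (log2 ratios 0.27, 0.19 and 0.19), and MRPL24 and MRPL57 were lower (-0.15 and -0.04), all with intervals that left out 0. In vehicle MRPS34 and MRPL24 were neighbours without a clear order, whereas in (R)-9b MRPS34 was the higher.
The 5 least abundant genes with counts were MRPS24, MRPL46, MRPL38, MRPS18C and MRPS6. They stood at 0.155, 0.586, 0.545, 0.895 and 3.12 CPM per kilobase in vehicle and at 0.129, 0.782, 1.16, 0.775 and 2.69 in (R)-9b. MRPS6 had 894 counts in vehicle and 654 in (R)-9b, a log2 ratio of -0.21 (-0.36 to -0.07). MRPL46 had 251 and 284 counts, a log2 ratio of 0.42 (0.17 to 0.67). MRPS24 had 27 and 19 counts, and its interval of -1.20 to 0.63 gave no direction.

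**Figure D2:**
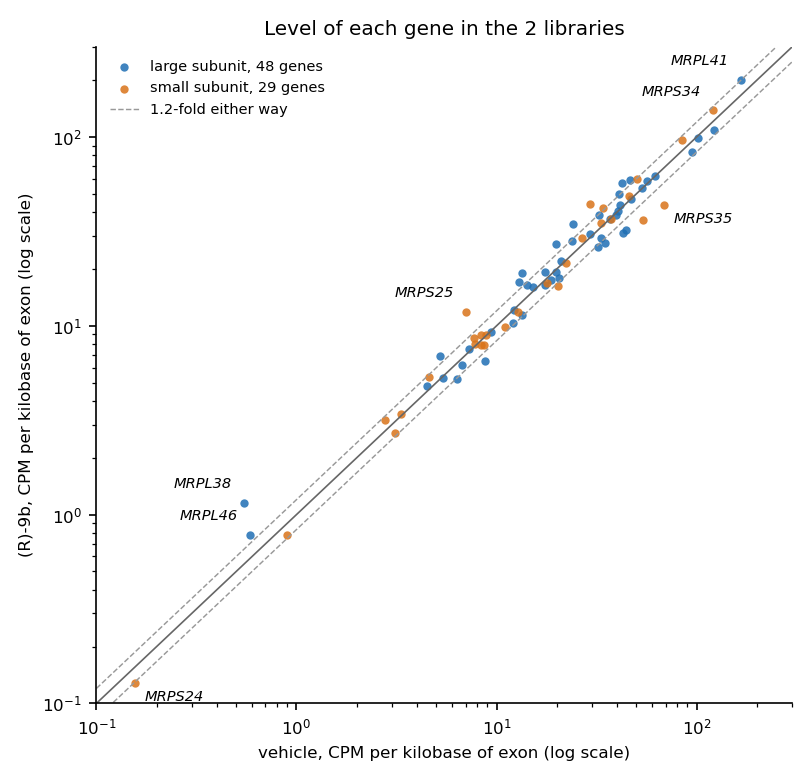
Level of each mitoribosome gene in the vehicle library (horizontal) and the (R)-9b library (vertical), as CPM per kilobase of exon on log scales. The solid line marks equal levels and the dashed lines 1.2-fold either way. Most genes lie between about MRPS6 (3.12 in vehicle) and MRPL41 (167), while MRPL38, MRPL46, MRPS18C and MRPS24 lie apart at under 1 CPM per kilobase in vehicle.

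Some of the low genes had many counts in the transcript table, in which counts of each transcript were estimated and were summed here per gene. For a typical mitoribosome gene the gene table held 2.74 counts per estimated count, close to the 2.76 of protein-coding genes with at least 1000 counts. MRPS24 (ENSG00000062582, chr7:43866558-43869893, minus strand) had 27 and 19 gene counts but 3260 and 2400 estimated counts. It shares 23.2% of its exon bases with other genes. The largest overlap is with URGCP-MRPS24, a readthrough gene annotated on the same strand, which had 0 counts in both libraries. MRPL38 (ENSG00000204316, chr17:75898643-75905413, minus strand) had 3316 and 3301 estimated counts, whose log2 ratio was 0.24 in place of 1.08. It shares 41.1% of its exon bases with other genes, most of all AC087289.3 on the same strand.
MRPL46 had 664 and 602 estimated counts, whose log2 ratio was 0.11 in place of 0.42. MRPS18C and MRPS6 had 398 and 587 estimated counts in vehicle and 255 and 470 in (R)-9b. MRPS24 and MRPL38 thus had few counts in the gene table only.

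In all, 12 genes had under 1/2 of the typical number of gene counts per estimated count and 9 had over 2 times that number. The latter included MRPL58, which encodes a peptidyl-tRNA hydrolase built into the large subunit, MRPL1, MRPL20 and MRPL45. MRPL58 had 3953 and 3354 gene counts and a log2 ratio of 0.00072, and 82.6 and 40.1 estimated counts with a log2 ratio of -0.79. MRPL45 had 62.8 estimated counts in vehicle and 0 in (R)-9b, which leaves no finite log2 ratio, beside its 5011 and 3080 gene counts. Among the large falls, MRPL48 had a log2 ratio of -0.07 by estimated counts in place of -0.44. The falls of MRPS35, MRPS18B and MRPL54 were -0.59, -0.55 and -0.47 by estimated counts, and the rises of MRPS25 and MRPS12 were 0.67 and 0.58.
Of the 76 genes with a ratio in both tables, 65 lay on the same side of 0 and 57 had log2 ratios within 0.1 of each other, with a median absolute difference of 0.04. Without the 21 genes that stood apart, the median log2 ratio of the other 56 genes was -0.0033, with 21 intervals above and 19 below 0.

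**Figure D3:**
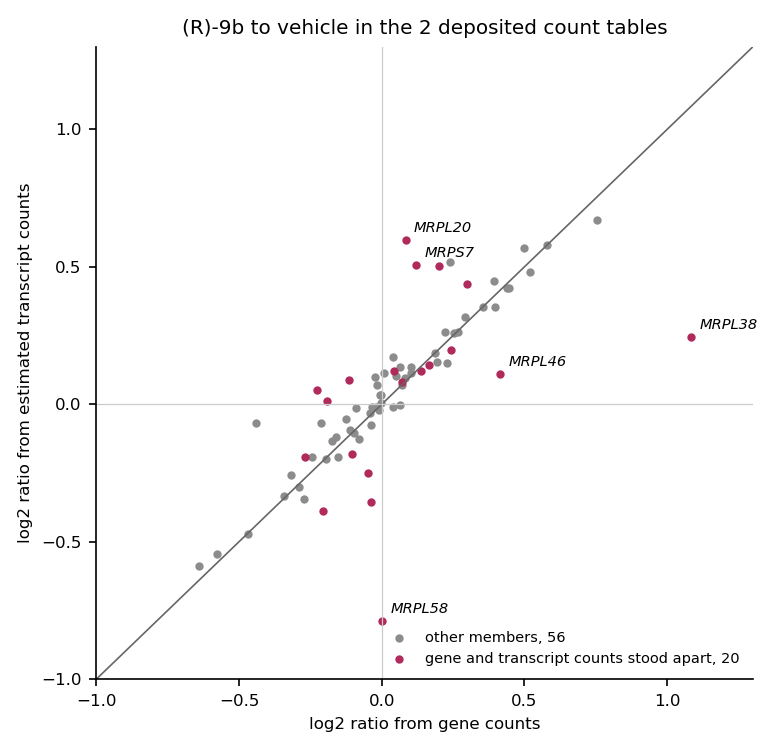
Log2 ratio of (R)-9b to vehicle from gene counts (horizontal) and from estimated transcript counts (vertical) for the 76 mitoribosome genes with both. The line marks equal ratios, and coloured points are the 20 genes with both ratios whose gene counts were under 1/2 or over 2 times the typical number per estimated count. Grey points follow the line closely with the exception of a few such as MRPL48, and MRPL38 and MRPL58 lie farthest from it.

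Annotated exons of other genes overlapped many of these genes. More than 20% of the exon bases were shared with other genes for 14 of the 78 genes (17.9%). This held for 10.4% of protein-coding genes with at least 10 counts and 8.08% of those with at least 1000. The 37 genes with no shared exon base had a median log2 ratio of -0.03, with 11 intervals above and 17 below 0. The 13 tested genes with more than 20% shared had a median of 0.07, with 5 above and 1 below. As shares, 29.7% lay above and 45.9% below 0 with no shared base, and 38.5% and 7.69% with more than 20% shared. In protein-coding genes with at least 1000 counts the corresponding medians were -0.03 and 0.00052. Of these genes with no shared base, 38.1% of intervals lay above and 45.1% below 0. With more than 20% shared, 40.1% lay above and 40% below. Of the 10 largest rises, 3 (MRPS25, MRPL38 and MRPL33) shared over 20% of their exon bases and 3 (MRPL36, MRPL16 and MRPL50) shared none. Of the 10 largest falls, 9 shared none, and MRPS14 shared 13.5%. Among all 77 genes tested, 37 shared none and 13 shared over 20%. The part of shared exons in these values was not tested.

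Many mitoribosome genes start back to back with another gene or overlap it at their starts, and both arrangements were counted here. A protein-coding gene that starts on the opposite strand and runs the other way within 1000 bases was annotated for 29 of the 78 genes (37.2%), against 16.1% of protein-coding genes with at least 10 counts and 19.0% of those with at least 1000. For 28 of them both genes passed the minimum count, and in 21 (75%) the neighbour lay on the same side of 0, against 1317 of 2244 (58.7%) among all protein-coding genes with such a neighbour. MRPS18B was lower, as was its neighbour PPP1R10, a regulatory subunit of protein phosphatase 1, which had 8421 counts in vehicle and 4407 in (R)-9b, a log2 ratio of -0.70. This pair overlaps, with starts at a distance of -903 bases, where a negative distance means overlap. By contrast MRPL36 was higher while NDUFS6, a subunit of respiratory complex I whose start lies 34 bases away, had 10476 and 8613 counts, a log2 ratio of -0.04.
MRPS34 and EME2, an endonuclease subunit gene 52 bases away, were both higher but by unequal amounts, with log2 ratios of 0.19 and 2.11. MRPS11 and MRPL46 are the only pair in which both genes encode mitoribosome proteins, with starts 34 bases apart. MRPS11 had 2918 and 2545 counts, a log2 ratio of 0.04 (-0.04 to 0.12), beside 0.42 for MRPL46, and this pair was counted once from each side. The paper counted only unambiguous reads, so reads from exons that neighbours share may be missing from both genes. The part of such reads in these values was not tested.

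Genes on both sides of 0 were found with and without each of the motifs shown above. The 28 tested genes with the ETS letters had a median log2 ratio of 0.07, with 13 intervals above and 7 below 0, and the 40 without them a median of -0.01, with 15 above and 14 below. The 13 genes with the NRF1 letters had a median of -0.08, with 5 above and 5 below, and the 55 without them 0.06, with 23 above and 16 below. The 13 genes with the YY1 letters had a median of 0.07, with 6 above and 5 below, and the 55 without them 0.00072, with 22 above and 16 below. Of protein-coding genes with at least 10 counts, 35.4% of intervals lay above and 37.0% below 0. The transcripts of the factors themselves were lower in the (R)-9b library in several cases.
NRF1, a factor that binds promoters of many nuclear genes of mitochondria, had 2389 counts in vehicle and 681 in (R)-9b, a log2 ratio of -1.57 (-1.70 to -1.45). GABPA had 1151 and 765 counts, and YY1 had 10805 and 7166, each with a log2 ratio of -0.35. PPARGC1A, a coactivator of mitochondrial biogenesis, was low, with 103 and 27 counts, a log2 ratio of -1.69 (-2.36 to -1.07). ESRRA, an orphan receptor that works with it, had 8552 and 8499 counts and a log2 ratio of 0.23 (0.19 to 0.27). Over the 9 factors of this kind, 5 intervals lay below and 2 above 0, with a median of -0.35.

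Some proteins of the mitoribosome have other names. DAP3, a GTP-binding protein of the small subunit, had 14211 counts in vehicle and 7801 in (R)-9b, a log2 ratio of -0.63 (-0.67 to -0.59), close to that of MRPS35. CHCHD1, also of the small subunit, had 2729 and 3008 counts, a log2 ratio of 0.38 (0.30 to 0.45). PTCD3 had 4462 and 4304 counts, a log2 ratio of 0.19. AURKAIP1 and GADD45GIP1 had log2 ratios of -0.06 and 0.0051. As among the genes named MRPL and MRPS, values lay on both sides of 0, with 2 intervals above and 2 below.

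The rRNAs of the mitoribosome did not move with its protein genes. MT-RNR1, the small subunit rRNA, had 35940 counts in vehicle and 154713 in (R)-9b, a log2 ratio of 2.34 (2.33 to 2.36). MT-RNR2, the large subunit rRNA, had 238063 and 1135062 counts, a log2 ratio of 2.49 (2.48 to 2.50). All 13 mitochondrially encoded protein genes, the messages that the mitoribosome translates, were higher as well, with a median of 2.76. No mitoribosome protein gene came near these ratios, the highest being 1.08 for MRPL38. Libraries of poly-A selected RNA measure rRNA only in so far as it is captured, which was not tested.

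Genes that act with the mitoribosome had medians near 0. The middle 50% spanned 0.48 on the log2 scale for assembly factors and 0.51 for genes of tRNA charging, more than the 0.33 of the mitoribosome genes, and 0.17 for translation factors, which is less. The 28 assembly and rRNA maturation factors had a median log2 ratio of 0.08, with 12 intervals above and 11 below 0. The extremes among them were MTG1, an assembly GTPase (237 and 445 counts, a log2 ratio of 1.15), and TFB1M, an rRNA methyltransferase (417 and 252 counts, -0.49). The estimated counts of MTG1 gave 0.41. The 15 translation factors found in the table had a median of 0.0070, with 3 above and 6 below, between MTFMT, which formylates the initiator tRNA (0.58), and MTIF3, an initiation factor (-0.32).
The 20 genes of tRNA charging, 17 aminoacyl-tRNA synthetases and the 3 subunits of the amidotransferase that makes glutaminyl-tRNA, had a median of 0.06, with 9 above and 7 below. The 17 synthetases alone had a median of 0.05, with 7 above and 6 below. IARS2, for isoleucine, was the lowest by its interval at 15501 and 10010 counts, a log2 ratio of -0.39. VARS2, for valine, had 4 and 20 gene counts, a log2 ratio of 2.56 (0.98 to 4.57), but 507 and 325 estimated counts, whose log2 ratio was -0.39.

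Factors upstream and downstream of translation differed more in single genes. In the 20 genes of mitochondrial transcription and RNA processing, 13 intervals lay above and 3 below 0, with a median of 0.18. LRPPRC, which stabilizes mitochondrial messages, went the other way with 18656 and 9236 counts, a log2 ratio of -0.78, while FASTKD1 had 976 and 1635 counts, a log2 ratio of 0.98. The 25 import genes had a median of 0.06, with 13 above and 9 below, and the matrix chaperone HSPA9, which pulls mitoribosome proteins in with other imported proteins, had 50273 and 20144 counts, a log2 ratio of -1.08. PAM16 of the same import motor had 161 and 239 counts, a log2 ratio of 0.81, and -0.12 by estimated counts.
The 10 chaperones and proteases had a median of -0.11, with 2 above and 6 below. LONP1, a matrix protease, had 60938 and 27685 counts, a log2 ratio of -0.90, and SPG7, an inner membrane protease subunit, had 4074 and 5772 counts, a log2 ratio of 0.74.

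The genes of the cytosolic ribosome were mostly lower, by small amounts. Over 84 cytosolic ribosomal protein genes the median log2 ratio was -0.12, with 15 intervals above and 62 below 0, beside 29 and 24 of 77 for the mitoribosome. The shares above and below 0 were 17.9% and 73.8%. Those of protein-coding genes were 35.4% and 37.0% at a minimum of 10 counts, and 38.4% and 44.3% at a minimum of 1000. The cytosolic genes summed to 84740 CPM in vehicle, against 5009 CPM for the mitoribosome genes, and higher counts give narrower intervals. By size, 68 of the 84 lay within 1.2-fold, 7 were higher and 9 lower. Their summed counts had a log2 ratio of -0.17, and those of the mitoribosome 0.03. The middle 50% spanned 0.17 for the cytosolic and 0.33 for the mitochondrial set. RPL41 was the lowest by its interval, at -0.39, and RPL36A was the highest with 40 and 139 gene counts, a log2 ratio of 2.03, but -0.38 by its 14577 and 9443 estimated counts. The difference between the 2 ribosomes could not be tested with 1 library per condition.

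**Figure D4:**
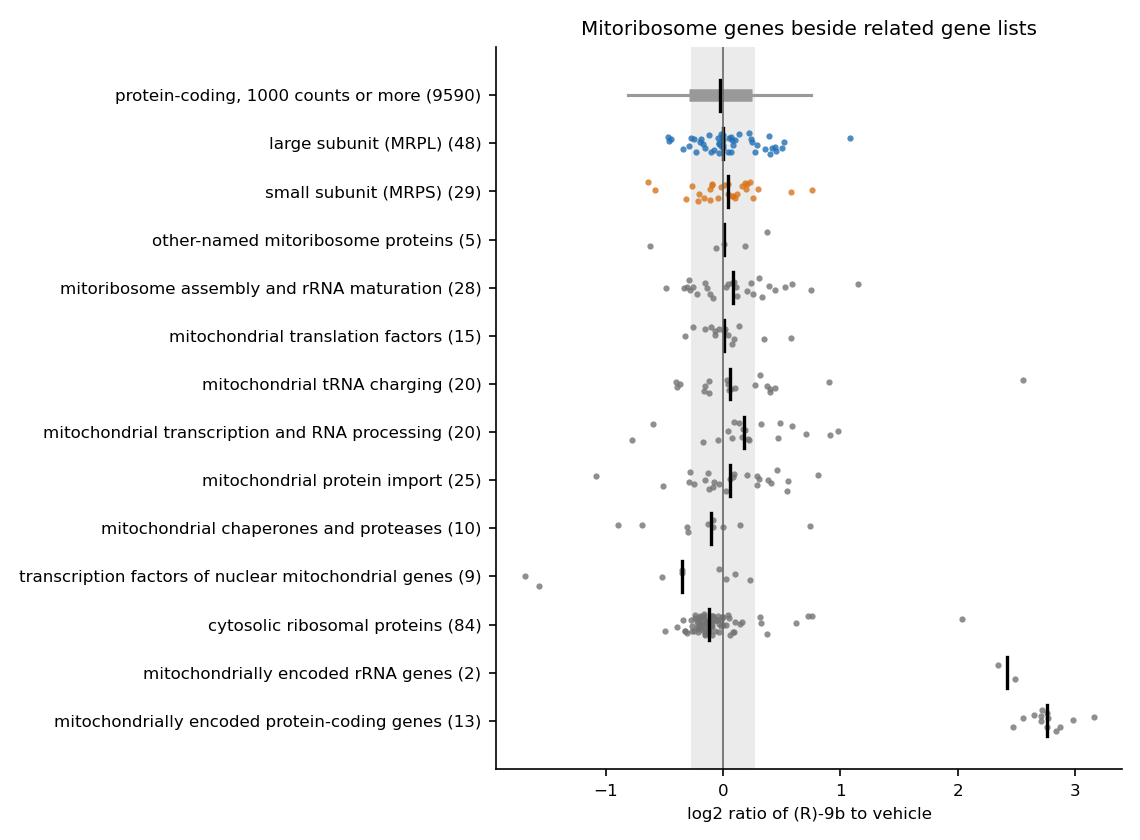
Log2 ratio of (R)-9b to vehicle (horizontal) for mitoribosome genes and related gene lists, with the number of genes in parentheses. Each point is a gene, placed with random vertical scatter, and black bars are medians. For protein-coding genes with at least 1000 counts the thick bar spans the middle 50% and the thin line the middle 90%, and the grey band is 1.2-fold either way. Both subunits centre on 0, most cytosolic ribosomal protein genes lie slightly below it, and the mitochondrially encoded genes lie above 2.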

How the data were processed

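RNA from 1 vehicle and 1 (R)-9b culture of C4-2B cells was sequenced, and samples were grouped by the treatment in the labels. The gene counts deposited by the authors are whole numbers without normalization, taken from uniquely placed and unambiguous reads after STAR alignment to GRCh38. The submitters' processing notes list STAR 2.5.1a, featureCounts 1.4.6-p5 and Salmon 0.8.2 with build hg38, while the paper's methods name another STAR version. The authors also deposited the gene values as CPM and as moderated log2 CPM, and estimated counts per transcript. These 3 tables were used only as alternatives, and 2 further transcript tables were not used here.

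Lines that repeated a gene (200 of 60871) were dropped. Counts were scaled by TMM factors (edgeR 4.0.16), and a log2 ratio with an exact Clopper-Pearson 95% interval was computed (scipy 1.17.1) where the 2 libraries together held 10 or more counts. DESeq2 1.42.0 size factors were an alternative. Ratios of 1.2 or more either way were counted beside the shares of all protein-coding genes. Among counts of 1 to 20, 72.2% in vehicle and 70.3% in (R)-9b were even, so mates of a pair may have been counted separately, and halved counts were an alternative. The widths of the intervals had a median of 0.07 log2 to either side for mitoribosome genes, which had up to 16031 counts in a library. Exon lengths, overlaps and coordinates came from GENCODE 29 on GRCh38, and promoters from RefSeq on GRCh38.p14, the first listed per symbol. The paper names Ensembl release 101 for its alignment, and 58453 of the 60671 genes had a GENCODE 29 entry. Gene starts can differ between sources, as for MRPL36, whose promoter windows lie inside its GENCODE coordinates (1798386 to 1801366). Interval coverage was checked on simulated data with independent counts, so the check does not cover mates counted separately.

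Genes named in the text were the 10 largest rises and falls by the interval end nearest 0, the 5 most and 5 least abundant per kilobase, genes whose symbol and place differ, genes under the minimum count, the other-named mitoribosome proteins, and the extremes of each further list. MRPL58, MRPL1, MRPL20, MRPS11, the marker genes, the back to back neighbours and some transcription factors were named after their values were seen. The members, lists and comparisons were chosen with earlier results of these data known. One marker gene is not reported here.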

Additional observations from a re-analysis of the deposited data

Results flagged for a closer look

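MRPL53, a large subunit gene without a bacterial counterpart (ENSG00000204822, chr2:74471958-74473322, minus strand), had 0 gene counts in both libraries but 1288 estimated transcript counts in vehicle and 902 in (R)-9b, a signal that the gene counts behind the comparisons do not hold. The log2 ratio of these estimates was -0.26. Of its exon bases, 45.2% are shared with other genes, chiefly CCDC142 on the same strand, which had 449 and 560 gene counts. A gene count of 0 here therefore does not show that the gene was silent.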

How the results depend on the processing

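With 1 library per condition, no value has a replicate check. When a coefficient of variation of 0.1 between cultures, a value assumed and not measured, was added to the intervals, 7 lay above and 5 below 0 in place of 29 and 24. Counts of intervals and of genes past 1.2-fold stayed within 1.5 times the values of the report under the other alternatives run, as far as they could be computed, and no gene past 1.2-fold changed sign under any of them. Halved counts gave 27 intervals above and 18 below 0. Estimated transcript counts gave 28 and 19, with 16 genes over 1.2-fold higher and 10 lower. The 77 genes of this alternative included MRPL53 and left out MRPL45, so they were not quite the same genes. Scaling by total counts gave 11 higher and 14 lower in place of 14 and 10, and upper-quartile scaling 18 and 7. By summed counts, the log2 of the (R)-9b over the vehicle large to small ratio stayed small. It was 0.03 by estimated transcript counts and 0.04 without the genes whose tables stood apart, an alternative chosen after seeing the data. Both values lay outside the counting interval of -0.02 to 0.01 given above. The large minus small difference of medians was -0.04 and -0.01 under these 2 alternatives. No paired analysis was possible because each condition had 1 library. The low gene counts of MRPS24 and MRPS18C left intervals that included 0, and both had more estimated transcript counts than the typical ratio of the tables gives.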
